A study of Strigamia maritima with 9 samples.

Results

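The *Strigamia maritima* scaffolds JH432211, JH431789, JH431830, JH432185 and JH432085 carried the largest numbers of native-DNA binding peaks of 3 retrotransposon-borne methyl-CpG binding domains. Together these 5 scaffolds held 1258 of the 37836 peaks in the 6 deposited lists, 1243 from native DNA and 15 from amplified DNA. The scaffolds were chosen by their number of native peaks, which ran from 341 on JH432211 to 164 on JH432085, so that number is a description and was not tested. The next in rank, JH432213, had 113. No peak on the 5 scaffolds was filtered out.

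The DNA came from adult tissue of the centipede strain used for the genome sequence. It was sheared to about 200 bp, joined to sequencing adapters and offered to a CopiaMBD domain that had been translated in vitro as a fusion to the HaloTag, a protein tag that attaches covalently to beads. Native DNA was captured as it was (DAP-seq), whereas amplified DNA first went through 11 PCR cycles (ampDAP-seq), which copy the sequence without its methyl groups. After capture both kinds went through 20 library PCR cycles. There was 1 library for each of CopiaMBD1, CopiaMBD2 and CopiaMBD3 on each kind of DNA, and 1 HaloTag-only control for each kind. No group was replicated, so every difference below describes these libraries, and no p-value could be computed.

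Methyl-CpG binding domains are protein modules that recognise cytosine methylated within a CpG dinucleotide. Most known members of the family are animal nuclear proteins that read DNA methylation, often as parts of larger repressor or remodelling complexes. Copia elements are retrotransposons with long terminal repeats that move through an RNA copy. In arthropods DNA methylation is typically patchy, with methylated stretches separated by stretches without it. In the assay used here the DNA is naked, so a peak shows where the domain bound purified DNA and not where it sits in a cell.

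Native-DNA calls on these scaffolds came from libraries of 2239324 (CopiaMBD1), 2224965 (CopiaMBD2) and 2044955 (CopiaMBD3) tags at unique positions. Amplified-DNA calls used more, 3488873 to 3685424 tags, after the larger of library and control had been sampled down. The part of depth in the number of peaks was not tested. The 3 native lists share 1 HaloTag-only library, as do the 3 amplified-DNA lists. Coincidence of peaks between domains is therefore given as a description of the layout and not as evidence that the domains act alike.

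CopiaMBD3 had the most native peaks on all 5 scaffolds and CopiaMBD1 the fewest. JH432211, which reached 469 kb to its last native peak, held 57 CopiaMBD1, 120 CopiaMBD2 and 164 CopiaMBD3 peaks. JH431789, the longest at 719 kb, held 61, 110 and 146. JH431830 held 46, 73 and 99 peaks over 386 kb. The order of the domains was thus the same, while the longer scaffold was not the more crowded. JH432185 held 37, 74 and 92 peaks over 289 kb. JH432085 held 31, 54 and 79 over 383 kb. In peaks of all domains per 100 kb, JH432211 (72.7) and JH432185 (70.2) were the densest, JH431830 was intermediate (56.4), and JH431789 (44.1) and JH432085 (42.8) were the sparsest. CopiaMBD3 peaks outnumbered CopiaMBD1 peaks by 2.15 times on JH431830 to 2.88 times on JH432211, against 2.11 times in the whole series and 2.38 times on the other long scaffolds. These other long scaffolds, used for comparison throughout, are the 269 sequences whose last native peak lies at or beyond 100 kb.

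**Figure D1:**
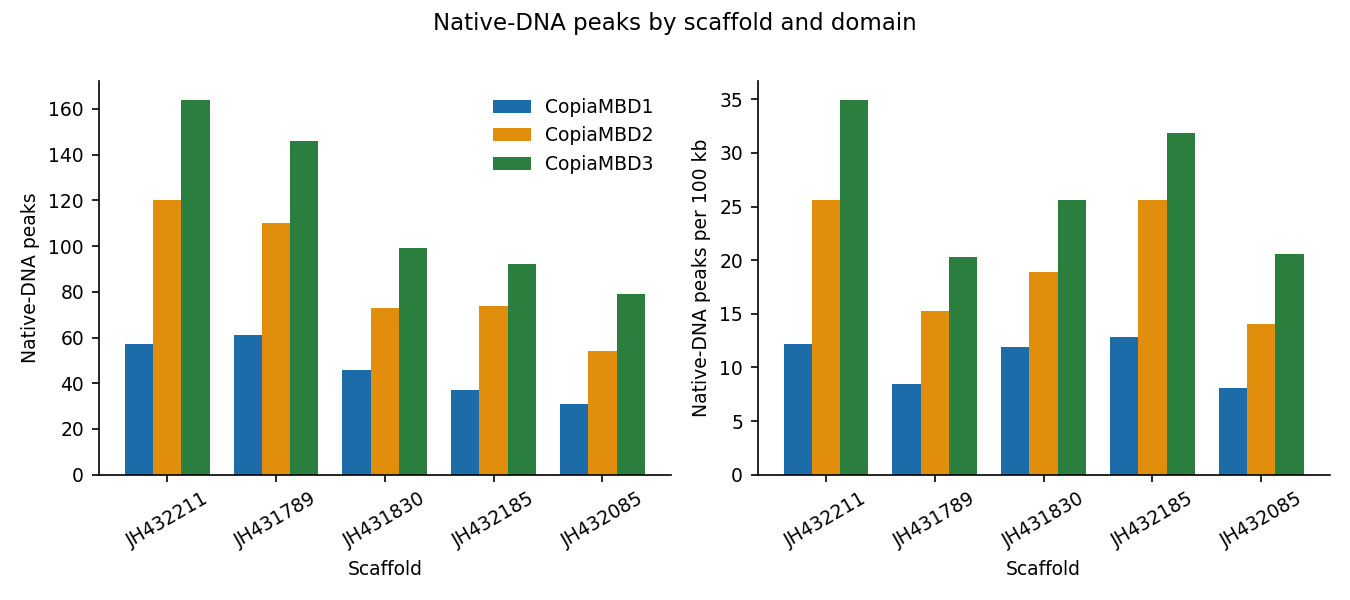
Native-DNA peaks of each domain on the 5 scaffolds, as numbers (left) and per 100 kb up to the last native peak (right), from 1 library per domain. CopiaMBD3 had the most peaks on each scaffold (79 to 164) and CopiaMBD1 the fewest (31 to 61), and JH432211 and JH432185 were the most crowded per length.

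CopiaMBD3 also had the most peaks when lists of the same length were compared. This comparison was added after the data were seen. The scaffolds were chosen by the pooled number of native peaks, and CopiaMBD3 supplied 580 of those 1243 peaks. That choice favours scaffolds rich in CopiaMBD3, so its excess here is a description and was not tested. With the strongest 7461 native peaks of each list by q-value, which is the length of the CopiaMBD1 list, the 5 scaffolds held 232 CopiaMBD1, 220 CopiaMBD2 and 317 CopiaMBD3 peaks. That is 3.11% (exact 95% interval 2.73 to 3.53), 2.95% (2.58 to 3.36) and 4.25% (3.80 to 4.73) of each list. On JH432211 the numbers were 57, 55 and 96, and on JH431789 they were 61, 56 and 70. The excess of CopiaMBD2 over CopiaMBD1 was thus absent at equal list length except on JH432185, with 42 against 37 peaks, whereas that of CopiaMBD3 was present on all 5 scaffolds, with 54 against 46 CopiaMBD1 peaks on JH431830, 53 against 37 on JH432185 and 44 against 31 on JH432085.

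Peaks of the 3 domains that share at least 1 bp were merged, which gave 671 native regions on the 5 scaffolds. Regions covered 13.0% of JH432211, 11.0% of JH432185, 9.49% of JH431830, 7.94% of JH432085 and 7.64% of JH431789. They were laid out in crowded runs separated by bare sequence. A dense block was taken as a run of at least 10 regions with gaps of at most 5 kb, and an empty stretch as at least 20 kb without a native peak of any domain. By these definitions 23 blocks held 379 of the 671 regions (56.5%, exact 95% interval 52.6 to 60.3) in 22.3% of the sequence. The 12 empty stretches made up another 23.0% of it. Inside blocks there were 7.55 regions per 10 kb and outside them 1.67, a contrast that the definition of a block builds in. The other long scaffolds had 7.23 and 0.536.

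**Figure D2:**
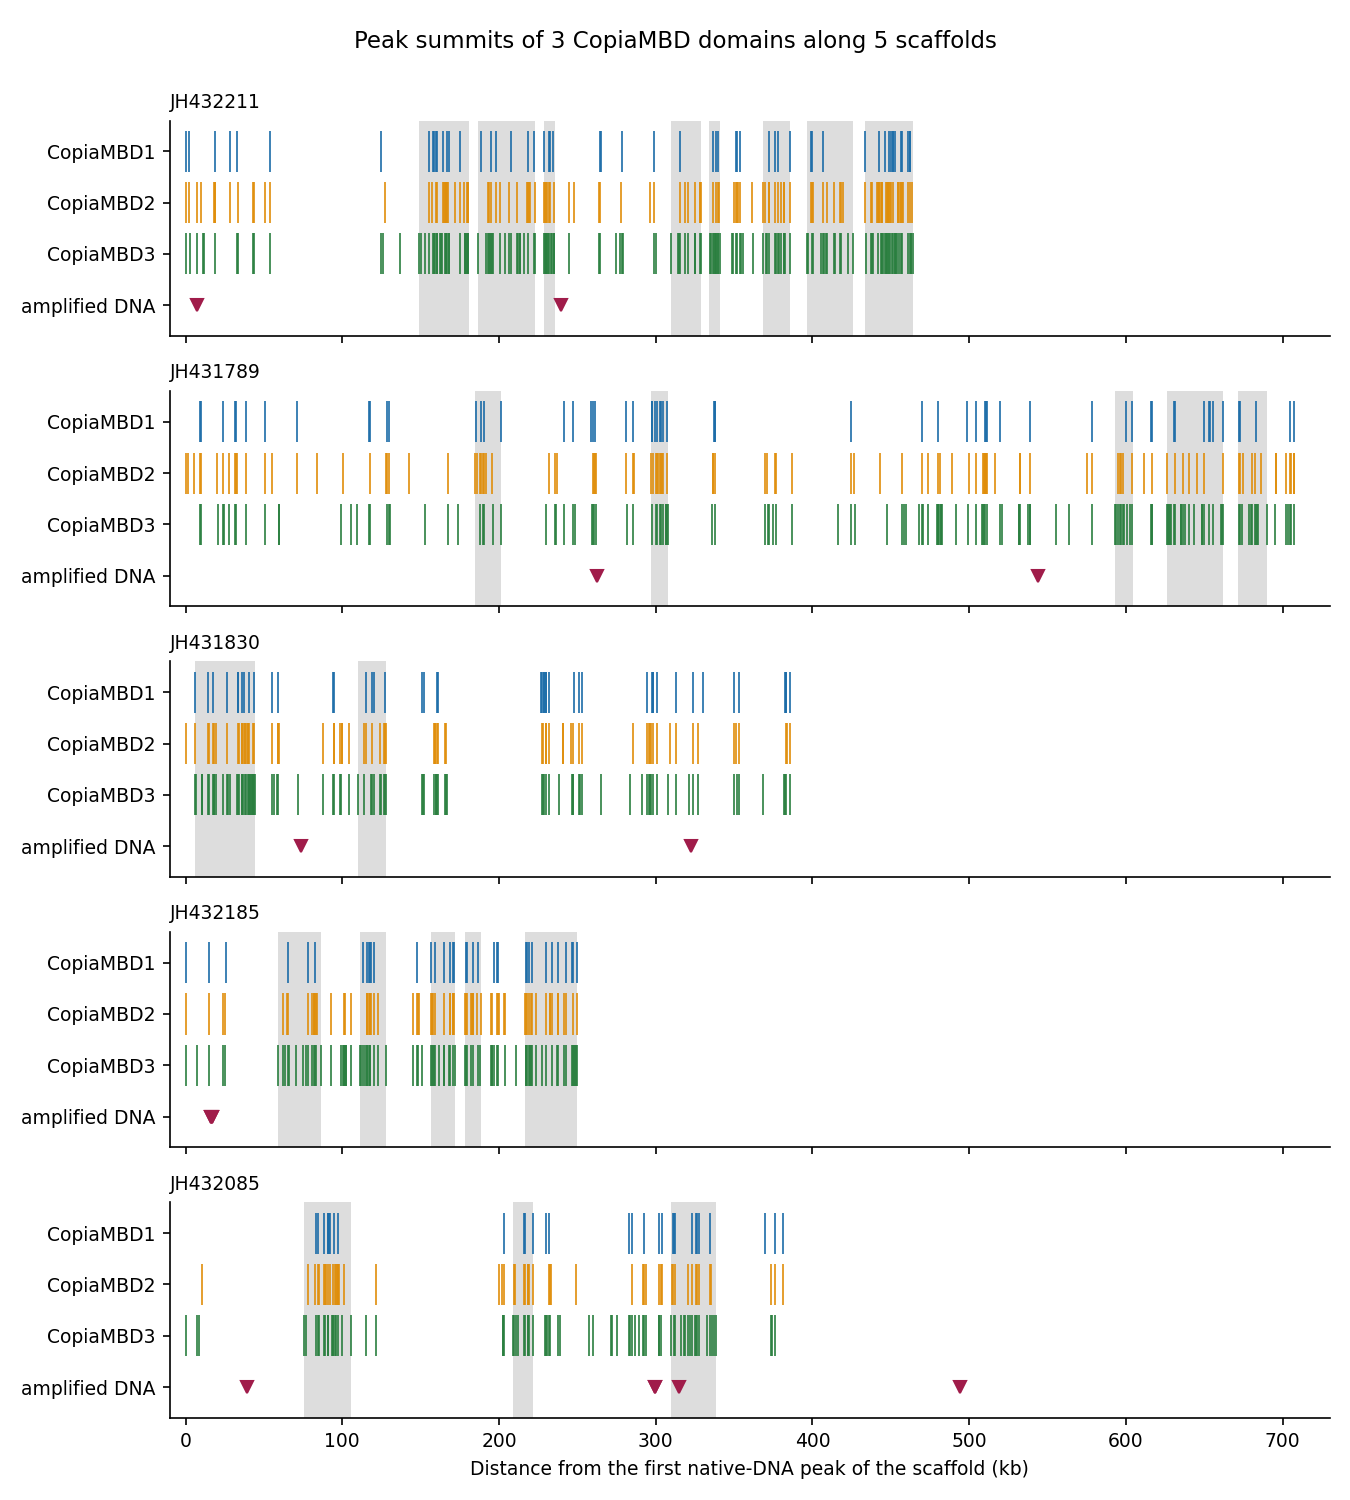
Summits of native-DNA peaks of CopiaMBD1, CopiaMBD2 and CopiaMBD3 (ticks) and starts of amplified-DNA peaks (triangles) along the 5 scaffolds, as distance in kb from each scaffold's first native peak. Grey bands are the 23 dense blocks, and the bare gaps include the 70.1 kb stretch on JH432211 and the 78.2 kb stretch on JH432085.

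JH432211 began with 17 scattered regions, followed by its only empty stretch, 70.1 kb from 59502 to 129559. Beyond it lay 169 regions, most of them in 8 blocks, and blocks held 143 of the scaffold's 186 regions. The block with the most regions, 27 between 154078 and 185621, had 9 CopiaMBD1, 17 CopiaMBD2 and 25 CopiaMBD3 peaks. A pair of blocks was much tighter than the rest, with 11 regions each in 6.67 kb (233724 to 240397) and 6.65 kb (339184 to 345829), or 16.5 and 16.6 regions per 10 kb against a median of 7.40 over the 23 blocks. In the block from 314445 to 333860 CopiaMBD1 had 1 peak beside 7 of CopiaMBD2 and 10 of CopiaMBD3. At the end of the scaffold the block from 438428 to 469037 had 13, 27 and 29 peaks, the most of CopiaMBD1 and of CopiaMBD2 in any of the 23 blocks. Its most crowded 10 kb windows held 11 regions each, 160001 to 170000 with 6, 6 and 9 peaks of the 3 domains and 450001 to 460000 with 6, 10 and 13.

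JH431789 was more evenly and thinly occupied. Its 5 blocks held 69 of 186 regions, and 3 of them lay at or beyond position 604548. The block with the most regions, 23 from 637908 to 673627, had 7 CopiaMBD1, 7 CopiaMBD2 and 21 CopiaMBD3 peaks, so CopiaMBD2 was as sparse there as CopiaMBD1. The block from 308718 to 319431 differed in make-up, with 8, 10 and 10 peaks, and 7 of its 11 regions carried all 3 domains. It included most of the most crowded window, 310001 to 320000, of 10 regions. The scaffold had 4 empty stretches of 28.3 to 31.3 kb, the longest from 350098 to 381434. Between a pair of them lay the widest region on the 5 scaffolds, 1818 bp from 348280 to 350097, spanned by a single CopiaMBD3 peak of fold 8.77 together with 2 peaks of CopiaMBD2 (best fold 6.22) and 3 of CopiaMBD1 (best fold 4.89). The HaloTag-only level at its 6 summits was 1.87 to 4.30 times the lowest of the respective list.

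JH431830 held the block with the most regions of all 23, 29 between 6274 and 44445, with 10 CopiaMBD1, 19 CopiaMBD2 and 32 CopiaMBD3 peaks. Its second block, of 12 regions, ended at 128215. Empty stretches of 22.8 kb (128216 to 151031) and 59.8 kb (166914 to 226718) followed. The last part of the scaffold, after the longer stretch, had 40 regions and no block. Its most crowded windows had 8 regions each and all touched the first block, 10001 to 20000 with 2, 5 and 8 peaks of the 3 domains, 30001 to 40000 with 4, 7 and 8, and 40001 to 50000 with 2, 5 and 10.

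JH432185 had no native peak before position 39158 and a further empty stretch of 33.6 kb from 64770 to 98380, with 6 regions between them. The remaining 98 regions lay between 98381 and 289086, and 5 blocks held 74 of the 104 regions on the scaffold. The longest empty stretch was therefore the one at its start, 39.2 kb. The block with the most regions, 23 from 255941 to 289086, had 11 CopiaMBD1, 17 CopiaMBD2 and 21 CopiaMBD3 peaks and ended at the last native peak. The most crowded window, 150001 to 160000, held 10 regions, with 6, 7 and 10 peaks.

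JH432085 was the most divided. Its 3 empty stretches took up 45.6% of the scaffold up to the last native peak, against 14.9 to 25.2% on the other 4 scaffolds. The longest of all 12, 78.2 kb from 123804 to 202035, lay between clusters, and another of 65.0 kb ran from 12770 to 77725. Its 3 blocks held 52 of 91 regions. The block from 77726 to 107459 had 22 regions with 9, 17 and 17 peaks, and within it the window from 90001 to 100000 held 12 regions, the most in any 10 kb window of the 5 scaffolds, with 7, 12 and 10 peaks of CopiaMBD1, CopiaMBD2 and CopiaMBD3.

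The order of the domains held within most blocks. CopiaMBD3 had the most peaks in 19 of the 23 blocks and tied with CopiaMBD2 in 2, and CopiaMBD1 had the fewest in 22. The ratio of CopiaMBD3 to CopiaMBD1 peaks ran from 1.25 to 10 with a median of 2.78. Blocks were 6.65 to 38.2 kb long (median 18.3 kb) with 10 to 29 regions (median 13). Peaks inside blocks were about as strong as those outside. The fold enrichment of a peak over the HaloTag-only control is the authors' own value throughout. Its median was 4.19 inside and 4.18 outside for CopiaMBD1, 4.41 and 4.43 for CopiaMBD2, and 5.31 and 5.18 for CopiaMBD3. The HaloTag-only level under the summits, divided by the lowest level in the same list, had medians of 1.79 and 1.64, 1.68 and 1.68, and 1.83 and 1.83.

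Blocks of a single domain, by the same definition applied to its own peaks, were frequent for CopiaMBD3 and rare for CopiaMBD1. CopiaMBD3 had 21 such blocks with 320 of its 580 peaks. CopiaMBD2 had 7 with 103 of 431 peaks, and CopiaMBD1 had 1 with 12 of 232, on JH432211 from 446872 to 467347. Conversely CopiaMBD1 had 33 stretches of at least 20 kb without a peak of its own, CopiaMBD2 23 and CopiaMBD3 17. Blocks and stretches of single domains were not counted at equal list length. The part of the different numbers of peaks in them was not tested. The longest stretch without CopiaMBD1, 105 kb on JH432085 from 99410 to 204631, contained 5 peaks of CopiaMBD2 and 5 of CopiaMBD3. On JH431789 CopiaMBD1 was absent for 86.1 kb (350038 to 436160), where CopiaMBD2 had 5 peaks and CopiaMBD3 had 7. The great gap of JH432211, in contrast, was nearly the same for all 3 domains, 70.6, 72.5 and 70.1 kb.

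Neighbouring summits of CopiaMBD3 lay closest together and those of CopiaMBD1 farthest apart. The median distance was 3.65 kb for CopiaMBD1 (interquartile range 1.11 to 10.9, 227 distances), 1.80 kb for CopiaMBD2 (0.645 to 5.32, 426 distances) and 1.22 kb for CopiaMBD3 (0.622 to 3.95, 575 distances). Means were 9.19, 5.11 and 3.77 kb, well above the medians, since a few long distances took much of the sequence. Distances of at least 20 kb numbered 30, 22 and 15 and made up 55.3, 37.9 and 27.5% of the summed length. Distances under 1 kb made up 22.5% for CopiaMBD1, 38.0% for CopiaMBD2 and 43.1% for CopiaMBD3.

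**Figure D3:**
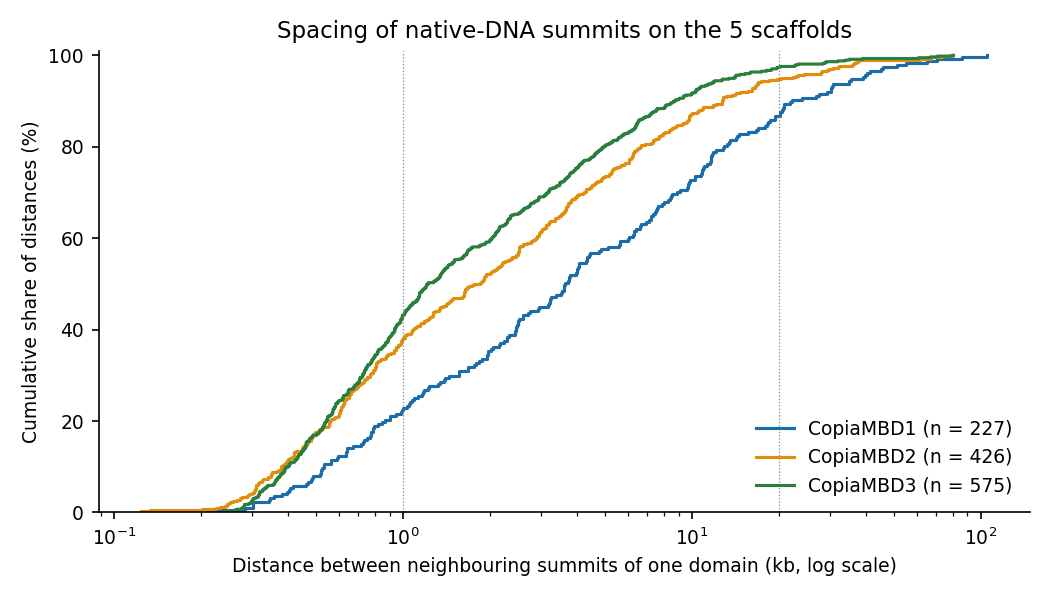
Cumulative distribution of the distance between neighbouring native-DNA summits of the same domain on the 5 scaffolds (log axis in kb, dotted lines at 1 and 20 kb). Of the distances, 22.5% for CopiaMBD1, 38.0% for CopiaMBD2 and 43.1% for CopiaMBD3 were under 1 kb.

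Part of this order went with list length. With lists of equal length the medians were 3.65, 3.80 and 2.38 kb, so CopiaMBD1 and CopiaMBD2 no longer differed in that direction, and CopiaMBD3 still had the shortest. The choice of scaffolds by pooled peak number favours CopiaMBD3 here too. The spacing also varied between scaffolds. For CopiaMBD2 the median was 1.06 kb on JH432185, 1.27 on JH432085, 1.61 on JH431830, 1.64 on JH432211 and 3.58 on JH431789. For CopiaMBD3 it was 1.01 kb on JH432211, 1.09 on JH431830, 1.13 on JH432185, 1.44 on JH432085 and 1.73 on JH431789, so JH431789 had the widest spacing of both domains. For CopiaMBD1 the medians were 2.84 kb on JH432085, 3.21 on JH431830, 3.74 on JH432185, 3.88 on JH432211 and 5.82 on JH431789. On the other long scaffolds the medians were 7.59, 4.25 and 3.92 kb for the 3 domains, which follows from the choice of crowded scaffolds.

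The gaps between merged regions had a median of 823 bp and a mean of 2.96 kb over 666 gaps. The median was 0.278 of the mean, with 0.270 to 0.321 on the single scaffolds. On the 80 other long scaffolds with at least 20 regions this ratio had a median of 0.298 (interquartile range 0.191 to 0.406). All 5 scaffolds lay inside that interquartile range, so by this measure their layout was about as uneven as on other long scaffolds. Dense blocks were found on 26 of the 269 other long scaffolds, 32 blocks in all, with 430 of 4309 regions, and none of those blocks had more than 23 regions. A block needs closely spaced regions, so the larger share in blocks on the 5 scaffolds follows from the choice of crowded scaffolds.

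Of the 671 regions, 162 carried all 3 domains (24.1%, exact 95% interval 21.0 to 27.6), against a background of 21.5% in the whole series. The most frequent class was CopiaMBD3 alone, with 239 regions (35.6%, 32.0 to 39.4; background 28.3%). CopiaMBD2 with CopiaMBD3 accounted for 130 regions (19.4%; background 19.1%) and CopiaMBD2 alone for 89 (13.3%, 10.8 to 16.1; background 19%). CopiaMBD1 with CopiaMBD3 had 28 (4.17%; background 3.67%) and CopiaMBD1 with CopiaMBD2 had 14 (2.09%; background 4.13%). CopiaMBD1 alone was the rarest class, with 9 regions (1.34%, 0.615 to 2.53; background 4.32%). On the other long scaffolds the shares were 15.9% for all 3 domains, 32.9% for CopiaMBD3 alone, 20.7% for CopiaMBD2 alone and 5.52% for CopiaMBD1 alone. The differences from the rest of the series were not tested, because regions of the same libraries are not replicates. The whole native lists held 7461 CopiaMBD1, 14001 CopiaMBD2 and 15714 CopiaMBD3 peaks. Classes were not counted at equal list length, and the part of list length in their order was not tested.

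**Figure D4:**
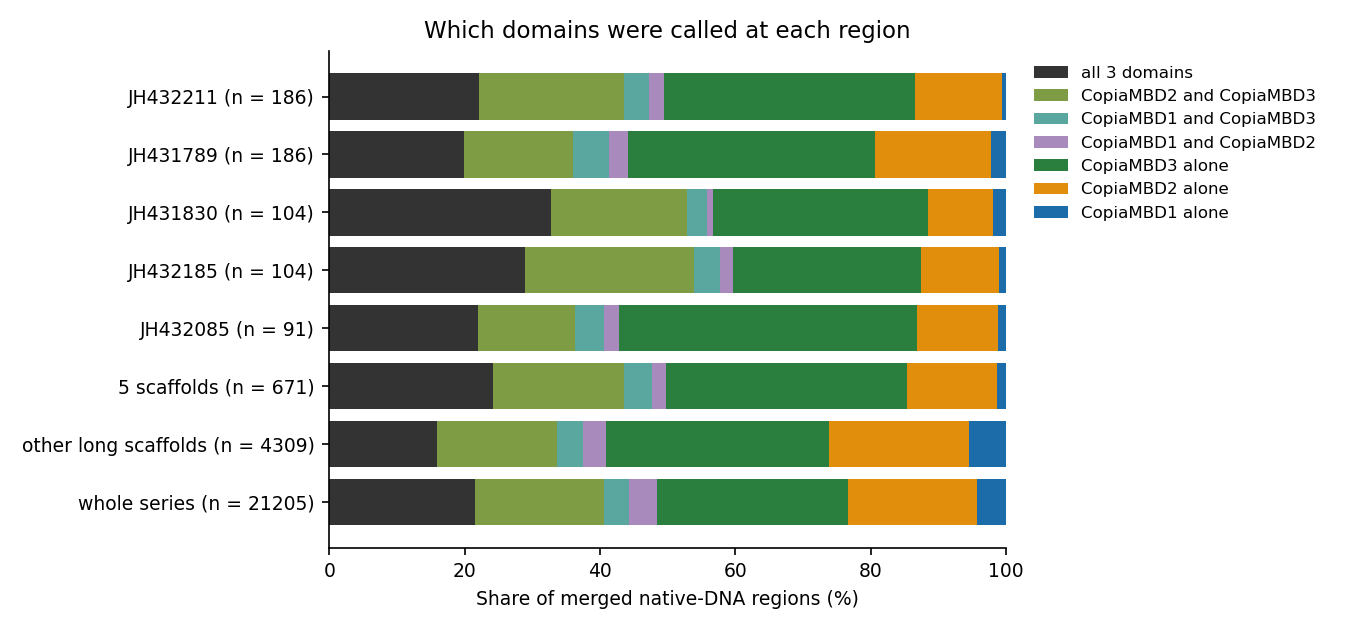
Share of merged native-DNA regions (in %) by the domains called there, for each of the 5 scaffolds, for their total, for 269 other long scaffolds and for the whole series, with the number of regions in brackets. Regions of CopiaMBD1 alone make up 1.34% on the 5 scaffolds and 4.32% in the whole series. The lists differ in length, and classes were not counted at equal list length.

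The mix varied between the scaffolds. Regions of all 3 domains made up 32.7% on JH431830 (34 of 104) and 28.8% on JH432185 (30 of 104), and 22.0% on JH432211 (41 of 186), 22.0% on JH432085 (20 of 91) and 19.9% on JH431789 (37 of 186). The exact 95% intervals of these shares all overlapped, from 14.4 to 26.4 on JH431789 to 23.8 to 42.6 on JH431830. Overlap of intervals does not show that the shares agree, and differences between the scaffolds were not tested. CopiaMBD3 alone ranged from 27.9% on JH432185 to 44.0% on JH432085. Inside blocks 25.3% of regions carried all 3 domains and 10.03% CopiaMBD2 alone (7.19 to 13.5), and outside blocks 22.6% and 17.5% (13.3 to 22.3). Among the 23 blocks the share with all 3 domains ran from 8.33 to 63.6%.

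Most CopiaMBD1 peaks touched a peak of another domain, on these scaffolds and in the whole series. Here 9 of 232 lay in regions of CopiaMBD1 alone. The whole series had 915 such regions for 7461 CopiaMBD1 peaks, and the other long scaffolds had 238 for 1294. Of 232 CopiaMBD1 peaks, 207 overlapped CopiaMBD3 (89.2%, 84.5 to 92.9; background 75.3%) and 190 overlapped CopiaMBD2 (81.9%, 76.3 to 86.6; background 76.4%). From the other side, 201 of 580 CopiaMBD3 peaks met CopiaMBD1 (34.7%; background 34.8%) and 188 of 431 CopiaMBD2 peaks did (43.6%; background 40.1%). CopiaMBD2 peaks met CopiaMBD3 in 327 cases (75.9%, 71.5 to 79.8; background 64.7%), and CopiaMBD3 peaks met CopiaMBD2 in 309 (53.3%, 49.1 to 57.4; background 56.7%).

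With full lists, CopiaMBD1 peaks on the other long scaffolds met CopiaMBD2 at 67.5% and CopiaMBD3 at 69.1%. CopiaMBD2 peaks there met CopiaMBD1 at 33.8% and CopiaMBD3 at 59.0%, and CopiaMBD3 peaks met CopiaMBD1 at 28.1% and CopiaMBD2 at 48.3%. All these shares depend on how long each list is. At equal list length 72.0% (65.7 to 77.7) of CopiaMBD1 peaks on the 5 scaffolds met CopiaMBD3, against a background of 53.3%, and 57.3% met CopiaMBD2, against 55.9%. CopiaMBD2 peaks met CopiaMBD1 at 57.7% (background 54.1%) and CopiaMBD3 at 64.1% (background 56.3%). CopiaMBD3 peaks met CopiaMBD1 at 49.5% (background 50.7%) and CopiaMBD2 at 43.5% (background 55.3%). The number of CopiaMBD3 peaks per length was also higher on the 5 scaffolds, and its part in these shares was not tested.

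The domains differed in how strong their peaks were on these scaffolds. Median fold enrichment was 4.19 for CopiaMBD1 (interquartile range 3.48 to 4.98, 2.32 to 8.10 over all 232 peaks), 4.41 for CopiaMBD2 (3.59 to 5.43, up to 11.4) and 5.26 for CopiaMBD3 (4.19 to 7.05, up to 14.9). At a −log10 q of 10 or more there were 22 CopiaMBD1 peaks (9.48%, 6.04 to 14.0; background 16.8%), 82 CopiaMBD2 peaks (19.0%, 15.4 to 23.1; background 25.9%) and 249 CopiaMBD3 peaks (42.9%, 38.9 to 47.1; background 37.7%). On the other long scaffolds the shares were 8.89, 16.5 and 30.7%. Medians by scaffold were 3.90 to 4.34 for CopiaMBD1, 4.34 to 4.56 for CopiaMBD2 and 5.18 to 5.31 for CopiaMBD3, so the 5 scaffolds differed little in the strength of a typical peak.

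CopiaMBD3 peaks were stronger where the other domains were called too. Their median fold was 4.58 at 239 peaks alone, 5.32 at 161 peaks with 1 other domain and 7.04 at 180 peaks in regions of all 3, and their median width was 188, 224 and 377.5 bp. CopiaMBD2 peaks had medians of 4.23, 4.23 and 4.98, and CopiaMBD1 peaks of 3.78 (9 peaks), 4.18 (42) and 4.23 (181). The HaloTag-only level under CopiaMBD3 peaks, on the scale above, had a median of 1.83 in all 3 classes. For CopiaMBD2 it rose with the class, from 1.41 alone to 1.81 in regions of all 3, and for CopiaMBD1 from 1.61 to 1.87. The part of peak width and control level in these differences was not tested.

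**Figure D5:**
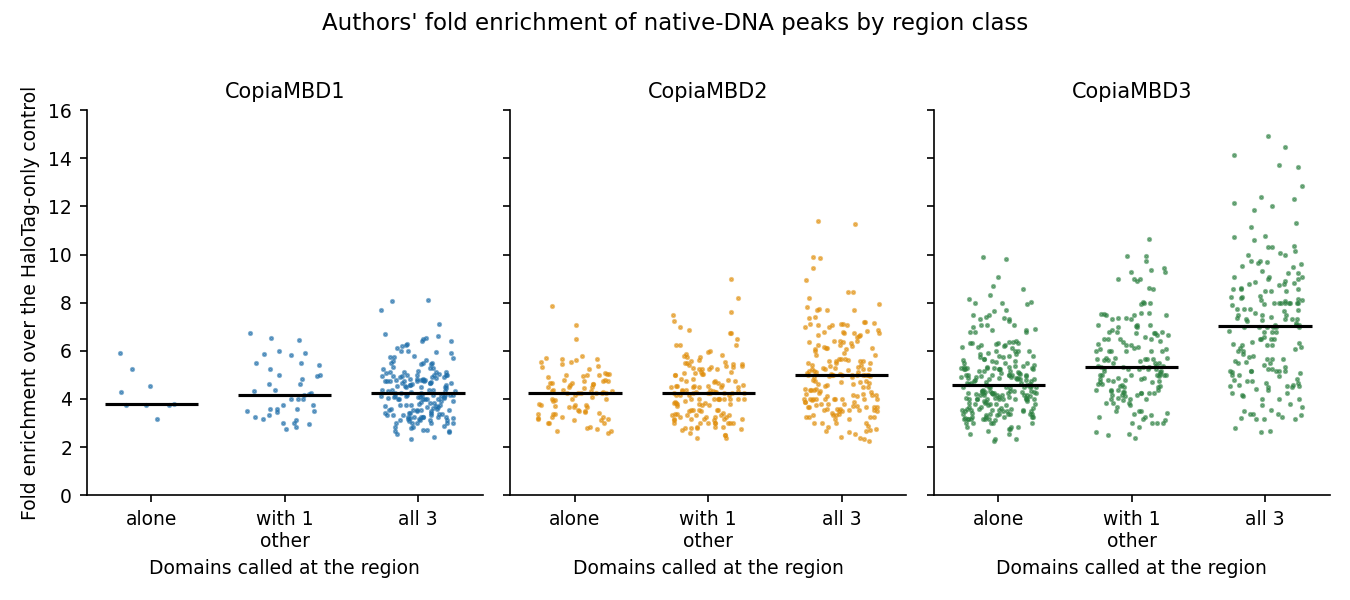
Authors' fold enrichment over the HaloTag-only control of each native-DNA peak on the 5 scaffolds (points), by how many domains were called at its region, with the median as a line. CopiaMBD3 medians were 4.58 alone, 5.32 with 1 other domain and 7.04 in regions of all 3 domains.

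The strongest CopiaMBD3 peak, on JH432211 from 465538 to 466037, had a pileup of 45 fragments and a fold of 14.9. CopiaMBD2 reached 6.77 and CopiaMBD1 3.48 in the same region. On JH432185 the strongest CopiaMBD3 peak (217867 to 218129) had a fold of 14.5, beside 4.12 for CopiaMBD2 and 4.15 for CopiaMBD1. The leading CopiaMBD3 sites were thus not the leading sites of the other domains. On JH431789 (35748 to 36050) the folds were 14.1 for CopiaMBD3, 5.31 for CopiaMBD2 and 5.17 for CopiaMBD1. On JH432085 (286752 to 287139) they were 13.7, 7.18 and 5.30. On JH431830 (385812 to 386324) CopiaMBD3 reached 12.8 while CopiaMBD2 had 2.69 and CopiaMBD1 3.98. All 5 leading CopiaMBD3 peaks lay in regions of all 3 domains. So did 180 of all 580 CopiaMBD3 peaks on these scaffolds, and 132 of the 249 with a −log10 q of at least 10.

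The strongest CopiaMBD2 peaks were on JH432185 (195642 to 195900, fold 11.4) and JH432085 (92280 to 92974, fold 11.3). CopiaMBD1 had 5.48 and 5.07 there, and CopiaMBD3 had 9.52 and 8.19. On JH431830 (353321 to 353540), JH432211 (172615 to 173207) and JH431789 (642693 to 643236) the leading CopiaMBD2 folds were 9.89, 9.43 and 8.43. These sites too were called for all 3 domains, with CopiaMBD3 at 9.06, 12.3 and 5.67. Regions of all 3 domains held 190 of all 431 CopiaMBD2 peaks, and 61 of the 82 with a −log10 q of at least 10.

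For CopiaMBD1 the top peaks were weaker. They had a fold of 8.10 on JH432185 (281663 to 281856), 8.08 on JH431830 (40102 to 41117), 7.10 on JH432211 (343552 to 343815), 6.72 on JH431789 (272790 to 272971) and 6.29 on JH432085 (86450 to 86656). The first 3 and the last lay in regions of all 3 domains, as did 181 of all 232 CopiaMBD1 peaks. At the JH431789 site CopiaMBD2 had a fold of 4.83 and CopiaMBD3 had no called peak, although CopiaMBD3 was called on either side, from 272350 to 272506 and from 273368 to 273606.

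The region in which the weakest of the 3 domains was strongest lay on JH431830 from 39983 to 41164, where CopiaMBD1 reached 8.08, CopiaMBD2 8.21 and CopiaMBD3 10.7, inside the block of 29 regions. On JH432185 the corresponding region (281622 to 282194) had 8.10, 7.07 and 6.98, and there CopiaMBD1 was the highest. On JH431789 (20816 to 21408) the folds were 6.40, 6.26 and 9.96. Those on JH432211 (356881 to 357158) were 6.00, 7.72 and 11.8. On JH432085 (86406 to 86697) they were 6.29, 5.85 and 9.60. Only the regions on JH431830, JH432185 and JH432085 lay inside blocks.

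Regions were wide where several domains met. Median width was 179 bp for regions of a single domain, 251 bp for regions of a pair and 496 bp for regions of all 3, against 171, 250 and 355 bp in the whole series. Merging peaks of more lists widens a region by construction. Single peaks were also wider than in the whole series, with medians of 215.5 against 196 bp for CopiaMBD1, 214 against 200 for CopiaMBD2 and 225 against 206.5 for CopiaMBD3. Within overlapping peaks the summits lay close together. The median distance was 47.5 bp between CopiaMBD1 and CopiaMBD2 (190 peaks), 44 bp between CopiaMBD1 and CopiaMBD3 (207) and 47 bp between CopiaMBD2 and CopiaMBD3 (327). On the other long scaffolds these medians were close, at 41, 43 and 41 bp, and in the whole series they were 31, 32 and 32 bp.

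Amplified DNA left these scaffolds almost bare. CopiaMBD1 had 7 peaks, CopiaMBD2 had 4 and CopiaMBD3 had 4, in 12 merged regions. There were 2 on each of JH432211, JH431789 and JH431830, 4 on JH432185 and 5 on JH432085, so the scaffolds with the most native peaks did not have the most amplified-DNA peaks. This number played no part in the choice of the scaffolds. Up to the last native peak of each scaffold there were 14, or 0.623 per 100 kb (exact Poisson 95% interval 0.341 to 1.05), against 266, or 0.364 per 100 kb (0.322 to 0.411), on the other long scaffolds, while native peaks stood at 55.3 against 9.51. The interval for the 5 scaffolds includes the value of the others. It treats peaks as independent, although 3 of the 12 merged regions were called for a pair of domains with 1 shared control. A difference in amplified-DNA peaks was therefore not tested.

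Of the 15 amplified-DNA peaks, 1 overlapped a native peak (6.67%, exact 95% interval 0.169 to 31.9; background 19.5%). It was a CopiaMBD2 peak on JH432211 (12392 to 12537, fold 4.02), where CopiaMBD2 on native DNA had a fold of 3.18 from 12406 to 12545. Within 1 kb of a native peak lay 2 more, and the median distance of all 15 was 1.76 kb. Gaps between native regions here had a median of 823 bp and a mean of 2.96 kb. Nearness to native peaks was not counted elsewhere in the series, so no trait of amplified-DNA peaks is read from it. Dense blocks took up 22.3% of the sequence and empty stretches 23.0%. A single amplified-DNA peak fell inside a dense block, that of CopiaMBD2 on JH432085 (316714 to 316853, fold 3.53). A single one also fell in an empty stretch, that of CopiaMBD1 on JH432085 (41097 to 41231, fold 3.72), 28.3 kb from the nearest native peak.

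The strongest amplified-DNA peak, of CopiaMBD1 on JH432085 from 496290 to 496440, had a fold of 5.84 and lay beyond every native peak of that scaffold. The last native peak ended at 383232, so a further 113 kb were without native peaks. On JH432211 CopiaMBD1 had a fold of 5.01 at 244211 to 244343, the only amplified-DNA peak of the 15 with a −log10 q of at least 10. On JH431789 CopiaMBD3 had folds of 4.71 (274250 to 274385) and 3.85 (555772 to 555940). On JH431830 the folds were 2.19 for CopiaMBD1 (73979 to 74146) and 2.68 for CopiaMBD2 (322452 to 322636). None of these 6 peaks overlapped a native peak.

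Of the 12 amplified-DNA regions, 3 carried peaks of a pair of domains (background 5.43%). A pair of them lay side by side on JH432185. CopiaMBD1 (55502 to 55666) and CopiaMBD2 (55519 to 55663) had folds of 2.01 and 1.98, and CopiaMBD1 (56102 to 56283) and CopiaMBD3 (56010 to 56330) had 1.96 and 1.88. These were the 4 lowest folds of the 15, at pileups of 55 to 73 fragments. The amplified-DNA control was high there, 9.78 to 13.8 times the lowest level of its list, against 1 to 3.62 at the other 11 peaks, and the part of this in the calls was not tested. The nearest native region, from 53713 to 54047, was called for all 3 domains at folds of 5.03, 4.98 and 8.91. The remaining pair, on JH432085, had folds of 3.14 for CopiaMBD1 (301779 to 301913) and 4.22 for CopiaMBD3 (301785 to 301930).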

How the data were processed

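Binding of 3 CopiaMBD domains to *Strigamia maritima* DNA was read from 6 peak lists, 1 per domain and DNA kind. Samples were grouped by their titles. The MethylC-seq sample is not analysed here. Per the file headers, the authors called peaks per library with MACS2 2.1.0.20150731 at a q-value of 0.05 with the matching HaloTag-only library as control, with the larger library sampled down, 1 tag kept per position and local control levels over 1 and 10 kb. The aligner and genome build are not given in the sources used here. Positions are 1-based, as deposited.

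The deposited pileup is a coverage signal in fragments. In the authors' lists the fold enrichment is the ratio (pileup + 1) / (control level + 1), and −log10 q is the deposited value at the summit. Fold enrichments were described within lists and not tested between them. The control level was recovered as (pileup + 1) / fold − 1.

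Regions, blocks and distances were computed with Python 3.11.15, numpy 2.4.6, pandas 2.3.3 and scipy 1.17.1, and plots drawn with matplotlib 3.10.9. The span of a scaffold runs from position 1 to its last native peak, since its length was not used here. Windows of 10 kb were counted from position 1, with regions assigned by midpoint and peaks by summit. In 20 simulated layouts every planted block, empty stretch and shared region was recovered. Shares carry exact Clopper-Pearson 95% intervals and densities exact Poisson ones. Intervals cover counting error only. They leave out the spread between libraries, because each group has 1 library. They also treat neighbouring peaks and regions as independent, although these are clustered. Reads were amplified by PCR and carry no molecular identifiers. Regions named by position are, per scaffold, the block with the most regions, the longest empty stretch, the most crowded window (with ties), each domain's strongest peak, the region of all 3 domains whose lowest fold is highest, and every amplified-DNA peak. Other positions were chosen after their values were seen. The scaffolds and definitions were chosen with earlier results of these data known.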

Additional observations from a re-analysis of the deposited data

How the results depend on the processing

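No paired analysis was possible because each group has 1 library and no result comes from a test. Without replicates no library could be left out. Of 48 alternative values 13 stayed within the interval of the reported value, or for numbers of peaks, blocks or stretches and for the share of span within 1.5 times, and 35 moved. Equal list length cannot change the CopiaMBD1 peak number or spacing, because that list sets the length, and both count among the 13. Overlap of at least 50% of the shorter peak moved none. A control level under 3 times the lowest left 202, 380 and 478 native peaks of CopiaMBD1, CopiaMBD2 and CopiaMBD3, also within 1.5 times.

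With a −log10 q of at least 10 the 5 scaffolds held 22, 82 and 249 native peaks of the 3 domains and 1 amplified-DNA peak. Regions of all 3 domains made up 4.12% of 267 regions, 1 block held 6.37% of regions, and 26 empty stretches took 50.7% of the span. CopiaMBD1 peaks met CopiaMBD2 at 63.6% and CopiaMBD3 at 81.8%, CopiaMBD2 peaks met CopiaMBD1 at 17.1% and CopiaMBD3 at 70.7%, and CopiaMBD3 peaks met CopiaMBD1 at 8.03% and CopiaMBD2 at 24.9%. Median spacing was 41.4, 14.3 and 3.21 kb.

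At equal list length, chosen for the peak numbers after the data were seen, CopiaMBD2 had 220 and CopiaMBD3 317 peaks, the median spacing was 3.80 kb for CopiaMBD2 and 2.38 kb for CopiaMBD3, and the shares overlapping were 57.3 and 72.0% for CopiaMBD1, 57.7 and 64.1% for CopiaMBD2, and 49.5 and 43.5% for CopiaMBD3, each with the lower-numbered of the other domains first. Gaps of at most 2 kb gave 9 blocks with 17.3% of regions, and gaps of at most 10 kb gave 18 blocks with 83.3%. Counting empty stretches from 10 kb gave 44 with 42.0% of the span, and from 40 kb gave 4 with 12.2%. With 1 library each, neither the peak numbers nor the borders have a replicate check.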

Other observations

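Of the 9 native regions of CopiaMBD1 alone on the 5 scaffolds, 3 were the regions that end or begin an empty stretch, on JH432185 (64625 to 64769), JH431830 (226719 to 226863) and JH432085 (371877 to 372121). Each had a pileup of 14 fragments and a fold of 3.73, against a CopiaMBD1 median of 4.19 and lower quartile of 3.48. Without these peaks the borders would lie at the neighbouring native peaks. Those ended at 64601 on JH432185 and began at 227734 on JH431830 and 375258 on JH432085. The strongest CopiaMBD1-only peak, on JH432211 from 193186 to 193341, had a fold of 5.91 and lay inside a block. These peaks were singled out after their values were seen. The 5 scaffolds had 12 empty stretches among 671 regions. How often regions of the other classes border an empty stretch was not counted, so no trait of CopiaMBD1-only regions is read from this.

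On JH431830 a stretch of 1654 bp from 158276 to 159929 carried 3 peaks of CopiaMBD2 (best fold 6.86) and 2 of CopiaMBD3 (best fold 2.99) and none of CopiaMBD1. It was the widest of the 4057 native regions of CopiaMBD2 and CopiaMBD3 without CopiaMBD1 in the whole series. The HaloTag-only level at its 5 summits was 1.96 to 5.48 times the lowest of the list.

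Among long scaffolds the highest density of native peaks was not on these 5. JH431785, which reached 101.4 kb, had 95.6 per 100 kb.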
